A study of Homo sapiens with 2 samples.

Results

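Genes of endoplasmic reticulum (ER) stress and ER protein folding were examined in an RNA immunoprecipitation and sequencing (RIP-seq) experiment on eIF4A1, namely HSPA5, PRKCSH, ATF3, ATF6 and ERN1. They were chosen because each is named, by its gene ID, for a peak in the deposited eIF4A1 peak list, so the presence of a peak at each is how they were selected and not a result. Each of the 5 genes had 1 peak, which makes 5 of the 1920 peaks in the list, 1919 of which carry an annotation. The eIF4A1 sample was an immunoprecipitate of DU145 cytoplasmic lysate with a rabbit antibody against eIF4A1 (1 library). The IgG sample was the matching immunoprecipitate with control rabbit IgG from the other share of that lysate (1 library). DU145 is an established human prostate cancer cell line, and the labels give no treatment, allele or agent that causes ER stress for either group. With 1 library per antibody there is no replicate error and no test between the groups, and the folds over control that follow are those the authors deposited.

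eIF4A1 is a helicase that works within eIF4F, the complex on the mRNA cap, and opens structure in the leader so that the small ribosomal subunit can scan. The unfolded protein response begins at sensors in the ER membrane, IRE1 (encoded by ERN1), ATF6 and PERK (encoded by EIF2AK3), which are held inactive when the chaperone BiP (encoded by HSPA5) is free to bind them. IRE1 splices the mRNA of the transcription factor XBP1, ATF6 is cut to release a transcription factor, and PERK phosphorylates eIF2α and favours translation of ATF4, which in turn raises ATF3. PRKCSH encodes the regulatory subunit of glucosidase II, which trims glucose from N-glycans so that new glycoproteins can enter and leave the calnexin and calreticulin cycle.

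The promoters of BiP and of other ER chaperones are known for the ER stress response element (ERSE), to which cleaved ATF6 binds together with NF-Y. It is shown here because it ties one of the sensors to the chaperone among the 5 genes. In RefSeq promoter windows (GRCh38.p14, 250 bases before to 50 bases after each gene's start), the letters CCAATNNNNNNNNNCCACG, searched on both strands, were found for 25 of 27305 genes (0.0916%). HSPA5 was one of them, and none of the other 4 genes was. The match, 66 to 48 bases before the start of the gene, is printed on the gene's strand with the CCAAT and CCACG parts of the element in capitals.
HSPA5 ERSE, chr9:125241386-125241414, minus strand: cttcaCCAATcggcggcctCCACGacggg
Among 19 ER chaperone genes with a promoter window, 5 held the element (HSPA5, HSP90B1, CALR, CANX and CRELD2). Of these, HSPA5 was chosen for its peak, and none of the others had a listed peak. The share of all protein-coding genes with a peak was 7.01%, and nothing is read from this count. The related letters ATTGGNCCACG (ERSE-II) and TGACGTGG (the core of the unfolded protein response element), and the cyclic AMP response element TGACGTCA that ATF factors bind, were in no promoter window of the 5 genes. They were found for 0.0696%, 0.927% and 2.25% of all genes in turn. A run of 4 CGG triplets (CGGCGGCGGCGG), a motif reported in leaders of mRNAs that depend on eIF4A, was likewise in no window of the 5 genes and in that of 2.70% of all genes. A window holds only the first 50 bases after a start, so the leaders were not searched as a whole. The absence of the CGG run from the windows therefore does not show that the 5 leaders lack it. No peak of the 5 genes overlapped a promoter window, so these letters describe the genes and not the sequence under a peak.

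**Figure D1:**
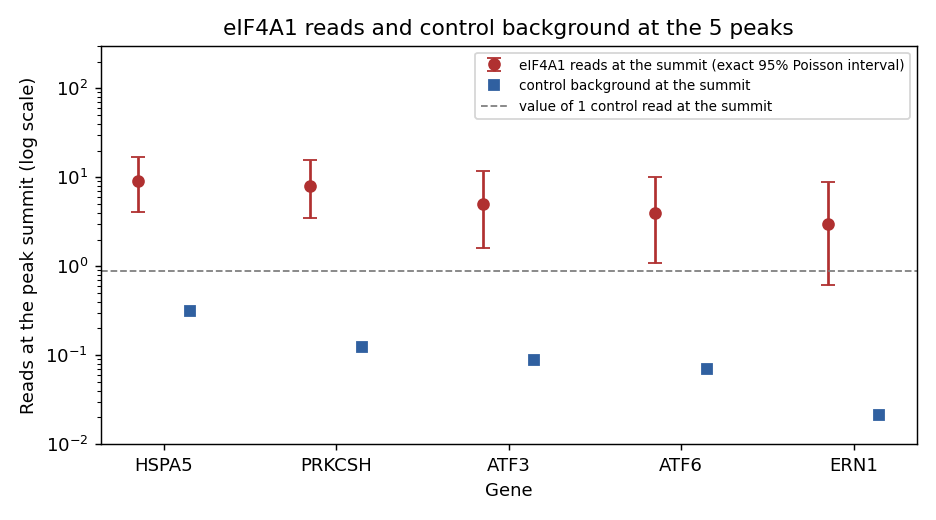
Reads at the summit (log scale) for each of the 5 genes, with circles for eIF4A1 reads and their exact 95% Poisson interval and squares for the control background. The eIF4A1 reads lie between 3 and 9. All 5 backgrounds lie below the dashed line at 0.880, taken as the value of 1 control read at the summit.

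The peaks were supported by few reads, and the chaperone and glucosidase genes had the most. The number of reads at each summit was worked back from the authors' fold and −log10 p, both of which follow from the reads and the background that the peak caller used. HSPA5 had 9 eIF4A1 reads at its summit over a control background of 0.317 read, and PRKCSH had 8 eIF4A1 reads over 0.123. ATF3 had 5 eIF4A1 reads over a background of 0.0880, ATF6 had 4 over 0.0704, and ERN1 had 3 over 0.0211. The order of the genes is thus the same by eIF4A1 reads and by control background. Over all 1920 peaks the median was 3 reads over a background of 0.0176, so the 5 backgrounds were all above the median. Together the 5 summits held 29 reads. The exact 95% Poisson intervals of the reads overlapped in all 10 pairs of genes, from 4.12 to 17.1 reads for HSPA5 at one end and from 0.619 to 8.77 reads for ERN1 at the other. The order of the 5 genes by reads was therefore not detectable at this depth. These intervals cover counting error only, since reads amplified by PCR are not independent molecules.

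HSPA5 encodes BiP, the HSP70 chaperone of the ER lumen. Its peak (Entrez gene 3309, hg38 chromosome 9, 125240702 to 125240798, 97 bases) had a fold of 7.59 over control, with an interval of 3.89 to 13.7 from the counting error of its reads. The −log10 q was 5.63. By fold it stood in place 39 of 1920, and 1.98% of peaks had a higher fold. HSPA5 spans 6491 bases and has 1 RefSeq transcript, and the summit lies 629 bases from its 5' end, 9.69% of the way along the gene. The authors' class is promoter (up to 1 kb from a transcript start), and for HSPA5 that start is also the 5' end of the RefSeq gene. The background of 0.317 was the highest of the 5, and 7.14% of all peaks had a higher one. A processed copy, HSPA5P1 (chromosome 1, 38708730 to 38711089), is listed in RefSeq as a pseudogene and held 0 peaks. The sources used here do not say how reads that match both were counted, so the HSPA5 value carries that uncertainty.

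PRKCSH had the highest deposited fold of the 5 genes, 8.01 (interval 3.97 to 14.9), with a −log10 q of 7.42 (Entrez gene 5589, chromosome 19, 11449349 to 11449373, 25 bases). It stood in place 20 by fold. Its fold was above that of HSPA5 with 1 read fewer, because its background was lower, and this order turned under other settings. With a pseudocount of 2 in place of 1 the folds were 4.71 for PRKCSH and 4.75 for HSPA5, and with 1 control read as the least background they were 4.79 and 5.32. With a pseudocount of 0.5 they were 13.6 and 11.6. The authors' class is again promoter within 1 kb, but the summit lies 13733 bases from the 5' end of the RefSeq gene and 1600 bases from its 3' end, 89.6% of the way along its 15334 bases. The class refers to a transcript of 732 bases inside the gene, whose start is 831 bases before the summit and whose end is 100 bases before it. The 2 peaks in the promoter class therefore lie at opposite ends of their genes.

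ATF3 encodes a stress-induced transcription factor of the basic leucine zipper family, downstream of PERK and ATF4. Its peak (Entrez gene 467, chromosome 1, 212619556 to 212619651, 96 bases) had a fold of 5.51 (interval 2.41 to 11.6) and a −log10 q of 3.84. The authors' class is 3' UTR, and the summit lies 1126 bases from the 3' end of the gene, at 98.0% of its 55371 bases. The summit is the last of the 96 bases of the peak.

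Among the 5 genes, the sensors ATF6 and ERN1 had the fewest reads, an order that was not detectable at this depth. ATF6 encodes the ER membrane protein whose cytosolic part becomes a transcription factor when proteases of the Golgi release it. Its peak (Entrez gene 22926, chromosome 1, 161792193 to 161792263, 71 bases) had a fold of 4.67 (interval 1.95 to 10.5) and a −log10 q of 3.10. The authors place it in exon 6 of 16, 25935 bases from the start of the transcript, at 13.1% of the 197751 bases of the gene. Among the 5 genes this is the only peak in the exon class.

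ERN1 encodes IRE1, the ER membrane kinase and endoribonuclease that splices XBP1 mRNA. Its peak (Entrez gene 2081, chromosome 17, 64039923 to 64039942) was 20 bases long, the shortest length in the list, with a fold of 3.92 (interval 1.59 to 9.57) and a −log10 q of 3.15. With 3 reads it had the number of reads found at 715 of the 1920 peaks, and 72.8% of peaks had a higher fold. The authors' class is 3' UTR, and the summit lies 791 bases from the 3' end of the gene, at 99.1% of its 91003 bases. The transcript that the authors' table names for it, 801 bases long, ends 14034 bases before the summit, while the RefSeq gene does span it.

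**Figure D2:**
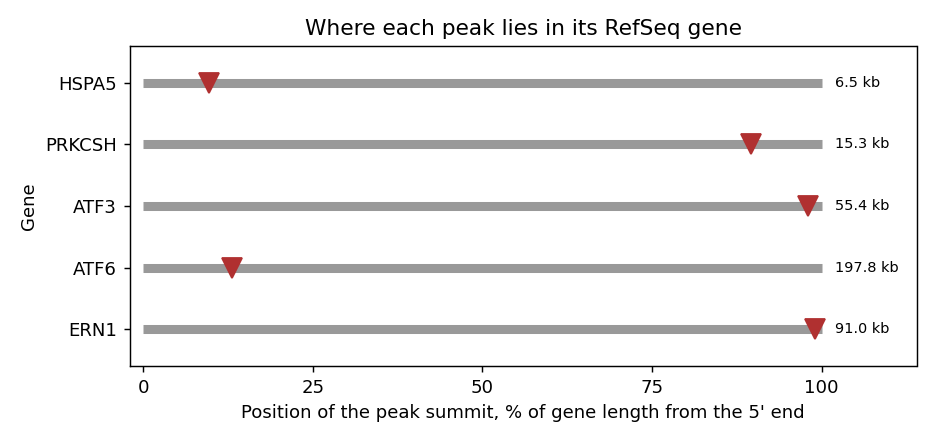
Position of each peak summit as a percentage of the length of its RefSeq gene, counted from the 5' end, with the gene's length in kb at the right. The summits of HSPA5 and ATF6 lie at 9.69% and 13.1%, and those of PRKCSH, ATF3 and ERN1 at 89.6%, 98.0% and 99.1%.

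All 5 summits lie inside the gene that the authors' table names, and in no other RefSeq gene on either strand. The share of all peaks that meet both conditions is not given here, so this is a description only. The summits of PRKCSH, ATF3 and ERN1 lie within 2 kb of the 3' end of the gene, and that of HSPA5 less than 1 kb from the 5' end. Of the 1412 summits inside their named protein-coding gene, 16.8% were within 2 kb of the 3' end and 14.8% within 1 kb of the 5' end. Both distances were chosen after the positions were seen, and with 5 peaks no difference from the whole list is drawn. By the authors' classes, 2 of the 5 peaks are promoter, 2 are 3' UTR and 1 is exon, against 57.3%, 12.7% and 20.0% of annotated peaks. Among 918 promoter-class summits inside their named protein-coding gene, 141 (15.4%) lay within 2 kb of the 3' end, as that of PRKCSH does. The nearest other peak lay 104934 bases away from that of PRKCSH, 108953 from that of ATF6 and farther from the other 3. No such distance is given for the rest of the list.

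**Figure D3:**
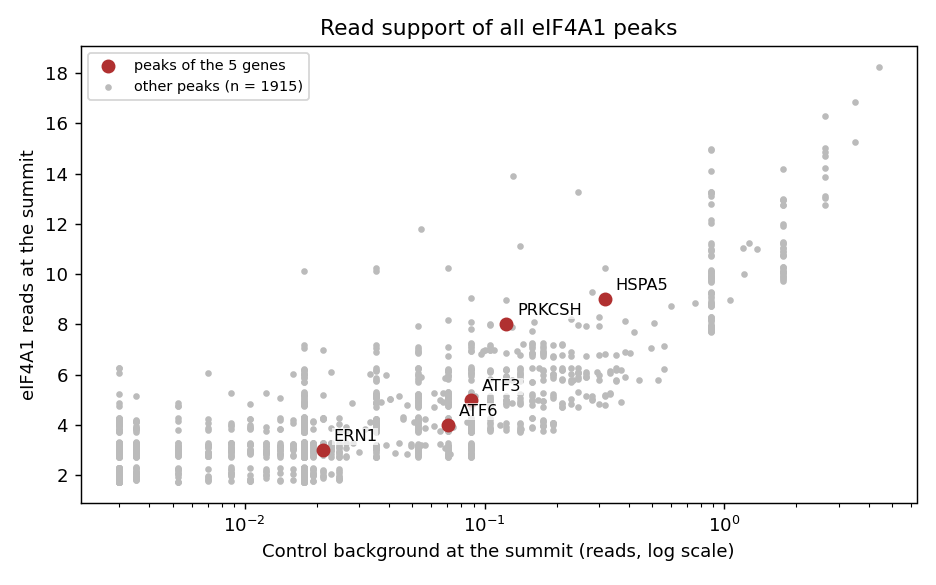
Each point is an eIF4A1 peak, with the control background at its summit on the horizontal axis (reads, log scale) and eIF4A1 reads at the summit on the vertical axis, where grey points were shifted vertically by up to 0.3 read to separate them. HSPA5 and PRKCSH, with 9 and 8 reads, lie above most of the 1915 other peaks. ATF3 and ATF6, with 5 and 4 reads, lie above the median of 3 over all 1920 peaks, and ERN1, with 3, lies at it.

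The background values fell on a grid, which can be read as control reads near each gene if the caller's usual windows are assumed. The most frequent background above 0.5 was 0.880, which is taken here as the value of 1 control read at the summit. Of 1606 peaks above the lowest background of the list, 1606 had a background that is a whole multiple (within 0.05 read) of what 1 such read gives when spread over a window of 10 kb, with reads extended to 20 bases. On this reading, the background at HSPA5 equals 18 control reads in 1 kb, that at PRKCSH 7, that at ATF3 5 and that at ATF6 4. The background at ERN1 is not a whole number in 1 kb (1.20) and equals 12 control reads in 10 kb. The first 4 could also be 180, 70, 50 and 40 reads in 10 kb, which the values cannot tell apart. All 5 backgrounds were under 0.880, as were those of 94.1% of all peaks, so on this reading no control read lay at any of the 5 summits while control reads did lie around them. The sources used here do not name the library that served as control.

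Because reads are few and backgrounds fall on a grid, the deposited folds repeat between genes. The fold of PRKCSH, 8.01, was shared exactly by SLC39A7, a zinc transporter gene, and TAOK2, a kinase gene, both also with 8 reads. For ATF3 the nearest genes in fold at the same read number were ACBD3 and ACLY, with the same 5.51, and 16 genes in all had this value. For ATF6 they were AHDC1 and BICD2 at 4.67, out of 22, and for ERN1 they were ABCA2 and ANKRD9 at 3.92, out of 15. For HSPA5, GARIN2 (7.80) and SOD2 (8.90), the gene of mitochondrial superoxide dismutase, were nearest among peaks of 9 reads. Likeness here is the difference in fold over 1 pair of libraries, and an equal fold means equal reads over an equal background.

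Support at the 5 genes split under stricter peak definitions. HSPA5, PRKCSH and ATF3 had at least 5 reads, as did 26.7% of all peaks, and the same 3 genes had a fold of at least 5, as did 22.5%. HSPA5 and PRKCSH had a −log10 q of at least 5, as did 26.3% of peaks. With the background set to no less than 1 control read, the −log10 p became 7.46 for HSPA5, 6.40 for PRKCSH, 3.52 for ATF3, 2.67 for ATF6 and 1.90 for ERN1. The lowest −log10 p in the deposited list was 5.59, so HSPA5 and PRKCSH were still above it, as did 7.71% of all peaks. The members were chosen from these values, and nothing is read from the shares.

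**Figure D4:**
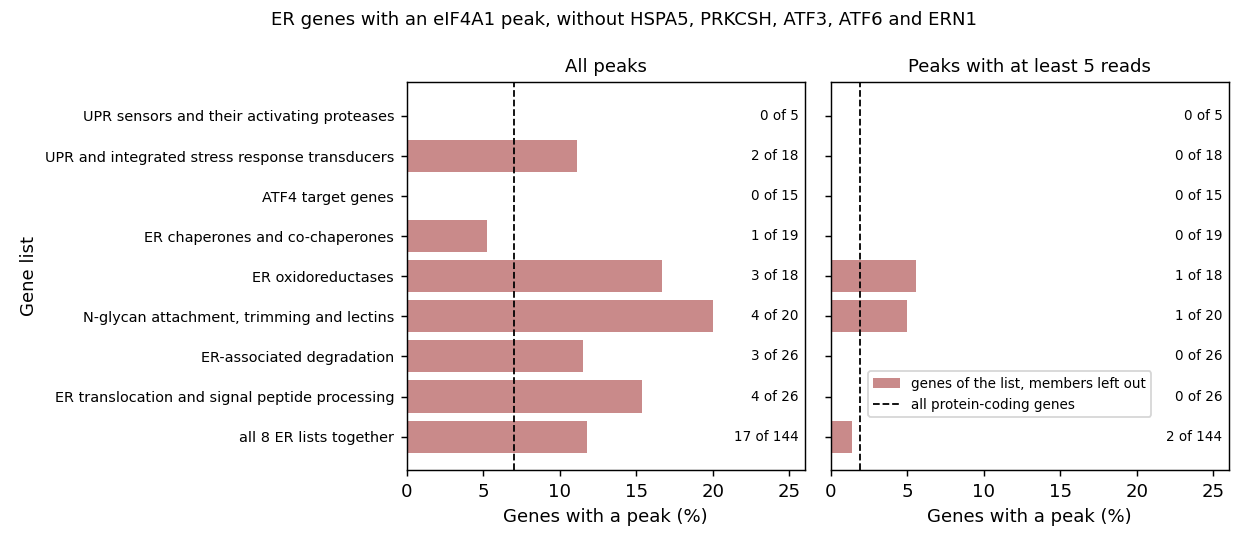
Percentage of genes with an eIF4A1 peak in 8 lists of ER genes and in the lists together, after HSPA5, PRKCSH, ATF3, ATF6 and ERN1 were left out, for all peaks (left) and for peaks with at least 5 reads (right). The dashed lines stand at 7.01% and 1.91%, the shares of all protein-coding genes, and the lists together stand at 11.8% on the left and 1.39% on the right.

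Other genes of the same pathways were also listed, mostly on 2 to 4 reads, and no test was made of their share. Leaving out the 5 genes, a peak was listed for 17 of 144 genes in 8 ER lists (11.8%), and for 7.01% of 20056 protein-coding genes. With at least 5 reads the count was 2 of 144 (1.39%), against 1.91% of protein-coding genes, so the order of the shares turned. A fold of at least 5 left the same 2 genes, TMX1 and LMAN2 (1.39%, against 1.66%). With the background set to no less than 1 control read, 0 of 144 kept at least the lowest deposited −log10 p, against 0.504%. The share of the lists was the higher one at a −log10 q of 5 or more, with 9 of 144 (6.25%, against 2.14%), in exon and UTR classes, with 7 (4.86%, against 2.59%), and by the RefSeq gene at the summit, with 16 (11.1%, against 6.98%). The median best fold of the 17 genes was 3.99, and that of all protein-coding genes with a peak was also 3.99. These are counts in 1 pair of libraries, and the length and abundance of the mRNAs were not taken into account.

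The third sensor, PERK (EIF2AK3), had no listed peak, and neither had ATF6B or the site-1 and site-2 proteases that cut ATF6 (MBTPS1, MBTPS2). Outside ATF6 and ERN1, 0 of 5 genes of the sensor list were named, against 7.01% of protein-coding genes. Among transducers, 2 of 18 other genes were named (11.1%, against 7.01% of protein-coding genes). They were CREB3L1 and CREB3L3, which encode membrane-bound transcription factors cut in the manner of ATF6. Both had a fold of 3.99 on 3 reads, and their −log10 q of 5.49 was above that of ATF3 because their background was 0.00298, the lowest in the list. A further peak inside CREB3L3 (6.04, 6 reads) is listed by the authors under SIRT6. XBP1, ATF4, DDIT3 (the transcription factor CHOP) and PPP1R15A (the phosphatase subunit GADD34) had no listed peak. Of 15 ATF4 target genes, among them ASNS and CHAC1, 0 were named, against the same 7.01%. The exact binomial interval of that count reached 21.8%, so with lists this short nothing is read from the counts of 0.

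Among 19 other ER chaperones and co-chaperones, DNAJC10, encoding a disulfide reductase that works with BiP, was the only one named (4.91, 4 reads, −log10 q of 5.03). That is 5.26% of the list, against 7.01% of protein-coding genes. HSP90B1, CALR, CANX and HYOU1, among the abundant chaperones of the ER, had no listed peak. ER oxidoreductases had a peak in 3 of 18 (16.7%, against 7.01%), and in 1 of 18 (5.56%) with at least 5 reads, against 1.91% of protein-coding genes. A −log10 q of 5 or more left 0 of 18, against 2.14%. With the background set to no less than 1 control read, 0 of 18 were left, against 0.504%. The 3 were TMX1 (5.43, 5 reads), TXNDC12 (4.32, 4 reads) and ERP44 (3.93, 3 reads), all of the thioredoxin family.

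In the list of N-glycan handling, PRKCSH was itself chosen for its peak. Of the 20 remaining genes 4 were named (20.0%), while the share over the whole protein-coding set was 7.01%. Requiring 5 reads or more left 1 of 20 (5.0%), beside a share of 1.91%. A −log10 q of 5 or more left 2 of 20 (10.0%, beside 2.14%). With the background set to no less than 1 control read, 0 of 20 were left, beside 0.504%. These shares were not tested. LMAN2, a cargo lectin of the early secretory pathway, had 5.70 on 5 reads, and TUSC3, an oligosaccharyltransferase subunit, had 4.91 on 4 reads. RPN2, also a subunit of that enzyme, had 3.99 on 3 reads, and LMAN1, a lectin that carries glycoproteins out of the ER, had 2.95 on 2 reads. GANAB, the catalytic partner of PRKCSH in glucosidase II, had no listed peak, and neither had MOGS, which trims the first glucose.

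Of 26 genes of ER-associated degradation 3 were named (11.5%, against 7.01% of protein-coding genes). They were the ubiquitin ligase MARCHF6 (4.92, 4 reads), the deglycosylase NGLY1 (3.99, 3 reads) and the mannosidase-like EDEM2 (2.95, 2 reads). The summits of MARCHF6 and EDEM2 also lie in MARCHF6-DT and the readthrough gene MMP24-AS1-EDEM2, and the peak list gives no strand, so those assignments are uncertain. Of 26 genes of ER translocation and signal peptide processing 4 were named (15.4%, against the same 7.01%), none of them with at least 5 reads. They were the translocon subunit SEC61G (4.98, 4 reads), the signal peptidase subunits SPCS3 (3.99) and SPCS1 (3.92), and SRP54 of the signal recognition particle (3.93), the last 3 on 3 reads each. The summit listed for SPCS1 lies in GLT8D1 and outside SPCS1, and that of SPCS3 also lies in SPCS3-AS1.

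A check of the cell type was not possible from peaks. Of 6 epithelial and prostate cancer line markers, 5 genes of the androgen receptor axis and 3 markers of other cells, 0 were named. The share of all protein-coding genes was 7.01%. A peak list gives enrichment over control and not expression, so a gene without a listed peak may still be expressed.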

How the data were processed

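RNA from 1 eIF4A1 and 1 IgG immunoprecipitate of DU145 cells was sequenced by the authors. The submitters' processing notes name BWA, STAR, Salmon, Picard, MACS2, ChIPseeker and DESeq2 and the builds hg38, GRCh38 and hg19, with no role, version or order. The peak track is deposited under the IgG sample, but all 1920 peaks in it carry the name of the eIF4A1 library. By the narrowPeak layout named in its header, it gives the authors' fold over control (a linear ratio), −log10 p and −log10 q. Its deposited score is 10 times −log10 q with the decimals dropped, in each of the 1920 peaks. The annotated table (2051 rows, 1919 peaks) gives the authors' class, gene ID and the same summit and −log10 q for all 1919. What the word filtered in the peak names stands for, and library totals, are not given in the sources used here.

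Peaks were joined on their name, and members taken by gene ID (5 of 5 matched in RefSeq, GRCh38.p14). Reads k and background b were solved from the fold, (k + 1)/(b + 1), and the Poisson probability of more than k reads. All 1920 peaks gave k within 0.01 of a whole number (at most 0.00029 away), and 17.3% did once p had been permuted between peaks. In 16 peaks, none of them of the 5 genes, a second whole solution existed. The method was tested on data simulated with the same formulas, over a narrower range of backgrounds than that of the peaks. That test therefore does not bear on the formulas themselves. The windows of 1 kb and 10 kb are the caller's usual ones, and the extension of 20 bases is the shortest peak length. Neither is recorded in the sources used here.

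No test was run, since each antibody has 1 library. The members and the 13 gene lists were chosen with earlier results of these data known. Named are the peaks of the 5 genes, list genes with a peak (all of them, as no list had more than 5), the 2 genes nearest in fold at the same read number, and other RefSeq genes at those summits. List genes without a peak (EIF2AK3, ATF6B, GANAB and the like) were named for their role. Alternatives were a stricter −log10 q, fold, read number or background, the pseudocount, and other gene assignments. Software was Python 3.11.15 with pandas 2.3.3, SciPy 1.17.1 and Matplotlib 3.10.9. Of genome sequence, only the RefSeq promoter windows were used here, and none of them overlaps a peak of the 5 genes, so the bases under those peaks are not shown.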

Additional observations from a re-analysis of the deposited data

How the results depend on the processing

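All 5 genes kept a peak when peaks were assigned to the RefSeq gene at the summit, to the gene under any base of the peak, or without distal intergenic peaks. The number of peaks naming a member gene equalled the number of member genes with a peak in each setting. It was 2 for a −log10 q of 5 or more (26.3% of all peaks), 3 for a fold of 5 or more (22.5%) and 3 for 5 reads or more (26.7%). With the background set to no less than 1 control read, 2 kept at least the lowest deposited −log10 p (7.71% of all peaks). Exon and UTR classes alone gave 3, as they leave out the promoter-class peaks of HSPA5 and PRKCSH. In the same order, the 8 ER lists together, members included, had 11, 5, 5, 2 and 10 of 149 genes with a peak, against 22 as deposited. The members were chosen for having a peak, and without them the counts were 9, 2, 2, 0 and 7 of 144, against 17 as deposited. The shares of all protein-coding genes were 2.14%, 1.66%, 1.91%, 0.504% and 2.59%, against 7.01% as deposited. Fewer peaks enter these settings by construction. Every fold stayed inside its counting interval under the other pseudocounts and backgrounds. Those intervals were computed with a pseudocount of 1 and the deposited background, so lying inside them is no measure of stability. PRKCSH and HSPA5 changed places: with a pseudocount of 2 they had 4.71 and 4.75, and with 1 control read as background 4.79 and 5.32. With a pseudocount of 0.5 they had 13.6 and 11.6. No paired analysis was possible because there is 1 library per antibody, and no replicate could be left out.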

Other observations

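Factors that pair with or resemble ATF3 were also examined. Of 17 genes of the ATF, CREB and AP-1 list, 5 were listed with a peak (29.4%), against 7.01% of protein-coding genes. JUND, a partner of ATF3 in AP-1 dimers, had 7.12 on 8 reads and a second peak of 3.79 on 3 reads. CREB5 had 6.08 on 7 reads, FOSL2 had 5.62 on 6 reads, ATF2 had 4.52 on 4 reads and 3.93 on 3 reads, and ATF1 had 3.99 on 3 reads. With at least 5 reads the count was 3 of 17 (17.6%), against 1.91% of protein-coding genes, and for a −log10 q of 5 or more it was 2 of 17 (11.8%), against 2.14%. The list was written with the ATF3 and ATF6 peaks known, and no test was made of it.

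A further list joined cytosolic and mitochondrial genes of HSP70, the family of BiP, with those of HSP90. Of its 16 genes 3 were named (18.8%), beside a share of 7.01% over the protein-coding set. The count was 2 of 16 (12.5%) with at least 5 reads, against 1.91%, and 0 of 16 for a −log10 q of 5 or more, against 2.14%. HSPA2, a cytosolic HSP70, had 3 peaks, at 5.85 on 10 reads, again 5.85 on 10 reads, and 4.60 on 4 reads. HSPA1A, the stress-inducible HSP70, had 4.97 on 10 reads over a background of 1.21, and its near-identical copy HSPA1B makes that assignment uncertain. HSPA4L had 3.91 on 3 reads, at a summit that also lies in LOC112268470. HSPA8 and HSP90AB1 had no listed peak.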
